A study of Mus musculus with 6 samples.

Results

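The 36 genes described here encode the glutathione and thioredoxin systems, enzymes linked to their NADPH supply, and the NRF2 regulator that controls many of them. They were taken from a list of gene names drawn up with earlier results of these data known; no threshold on their values was used. All 36 were found among the 21801 genes of the deposited table, as 108 of its 59192 transcripts, and 35 passed a filter on low values. By role, 4 belong to NRF2 control with its enzymes of quinone and heme breakdown, 13 to glutathione and 11 to thioredoxin and the peroxiredoxins. Superoxide dismutases and catalase make up 3. The other 5 are linked to NADPH supply, among them Tkt and Taldo1 of the non-oxidative pentose phosphate branch.

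The cells were B16F10, a mouse melanoma line, in a form that expresses ovalbumin. 3 libraries were made from cells kept in 50 µM Ac4ManNAz, passaged on day 3 and taken for RNA on day 5. The other 3 were made from untreated cells. Ac4ManNAz is an acetylated, azide-bearing analog of N-acetylmannosamine that cells convert to azido sialic acid, and the comparison asks how far this labelling alters the transcriptome. The labels name no vehicle, and whether each library had its own culture is not stated, so a p-value here is set by the scatter among 6 libraries that may differ only technically.

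Glutathione and thioredoxin are the main thiol reductants of the cell. Glutathione is made from glutamate, cysteine and glycine, is used by peroxidases, transferases and glutaredoxin, and is returned to its reduced form by glutathione reductase. Thioredoxin passes electrons to the peroxiredoxins, which remove hydrogen peroxide, and is recharged by thioredoxin reductase. Both reductases take their electrons from NADPH, which the oxidative pentose phosphate pathway and malic enzyme supply. NRF2, held low by KEAP1 and stabilised when KEAP1 cysteines are modified, binds antioxidant response elements near many of these genes.

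The melanocyte lineage markers Mitf, Sox10, Tyr, Tyrp1, Dct, Pmel and Mlana, 7 of 7, averaged at least 1 FPKM. FPKM is the number of sequenced fragments of a transcript corrected for its length and for the size of the library. Their summed level was 7431 to 9093 FPKM in the Ac4ManNAz libraries and 7636 to 9313 FPKM in the untreated libraries. Of 23 markers of fibroblasts, macrophages, T cells, endothelium and keratinocytes, 3 averaged at least 1 FPKM. Each of these 5 lists summed to at most 5.73 FPKM in any Ac4ManNAz library and 5.16 FPKM in any untreated library, and the macrophage marker Cd14 was listed at 0 throughout. The libraries summed to 310003 to 347126 FPKM, and the depth behind them is unknown because the table holds no counts. Genes listed above 0 numbered 13912, 15682 and 18974 in Ac4ManNAz replicates 1, 2 and 3. In untreated replicates 1, 2 and 3 they numbered 16818, 14064 and 18143. Genes at 1 FPKM or more ran from 9678 to 10042 over the libraries.

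The 36 genes together held 0.767%, 0.996% and 0.821% of the summed FPKM in Ac4ManNAz replicates 1, 2 and 3, and 0.843%, 0.754% and 0.718% in untreated replicates 1, 2 and 3. Levels ran over more than 2 orders of magnitude. 8 genes averaged over 100 FPKM, 22 averaged between 5 and 100 FPKM and 6 averaged under 5 FPKM. The most abundant were Gstp1, a glutathione transferase, at 432 FPKM over the 6 libraries, and the peroxiredoxin gene Prdx1 at 425 FPKM, which stood next to each other at ranks 109 and 110 of all genes and overlapped between libraries. Gpx4, which reduces lipid peroxides, followed at 257 FPKM, then Prdx2 at 189.8 FPKM, Txnrd1 at 184 FPKM and Taldo1 at 179 FPKM, and the libraries of these last 3 genes overlapped. The lowest tested gene was Gsta4, a transferase of lipid aldehydes, at 1.97 FPKM. Nqo1, a quinone reductase and a common NRF2 readout, was listed at 0.141, 0.117 and 0.0806 FPKM in the Ac4ManNAz libraries and at 0.212, 0.0631 and 0.145 FPKM in the untreated libraries, too low to be tested.

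After 5 days of Ac4ManNAz, 0 of the 35 tested genes passed the test, where limma with Benjamini-Hochberg adjustment over 9925 genes called 0% of all genes. The smallest adjusted p among the 35 was 0.9998. None of the 35 reached an unadjusted p under 0.05, which 1.78% of all tested genes did, and the smallest was 0.0853, for Gstp1. With no difference at all, a share near 0.05 would be usual. The p-values thus ran high over the whole table, and the cause was not tested. The 3 Ac4ManNAz values lay all above or all below the 3 untreated values for 0 of the 35, against 5.8% of all tested genes. Differences are given on the log2(FPKM + 1) scale, Ac4ManNAz minus untreated. They ran from -0.46 for Prdx6 to 0.46 for Hmox1, with a median of 0.05, where the median of all tested genes was -0.0014. The median size without sign was 0.11, against 0.099 over all tested genes. 24 of the 35, or 68.6%, averaged higher in Ac4ManNAz cells, against 49.6% of all tested genes. Both summaries turned on single libraries. The count was 15 without Ac4ManNAz replicate 2 and 14 without untreated replicate 3, while other scalings gave 24 to 26. The count over all 9925 tested genes, 4927 as first fitted, moved as well. It was 4342 without Ac4ManNAz replicate 2, 3866 without untreated replicate 3 and 4898 to 6142 under other scalings. The median was -0.0061 without Ac4ManNAz replicate 2, -0.06 without untreated replicate 3 and 0.15 without untreated replicate 1. In the same 3 fits the median of all tested genes was -0.019, -0.043 and 0.038. Bulk RNA cannot tell fewer cells of a kind from less RNA per cell.

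The confidence intervals bound what these libraries could have shown. 28 of the 35 genes had a 95% interval inside the 2-fold limits, against 91% of all tested genes, and 18 had one inside 1.5-fold, against 64.3%. The 7 genes with a wider interval were Hmox1, Gclm, Gsto1, Gstm1, Mgst1, Srxn1 and Prdx6. For these a 2-fold difference in at least 1 direction lay within the interval. The fold limits hold for FPKM + 1, so for genes of a few FPKM they allow more than the named fold in FPKM itself. Intervals are per gene and are not adjusted for the number of genes.

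**Figure D1:**
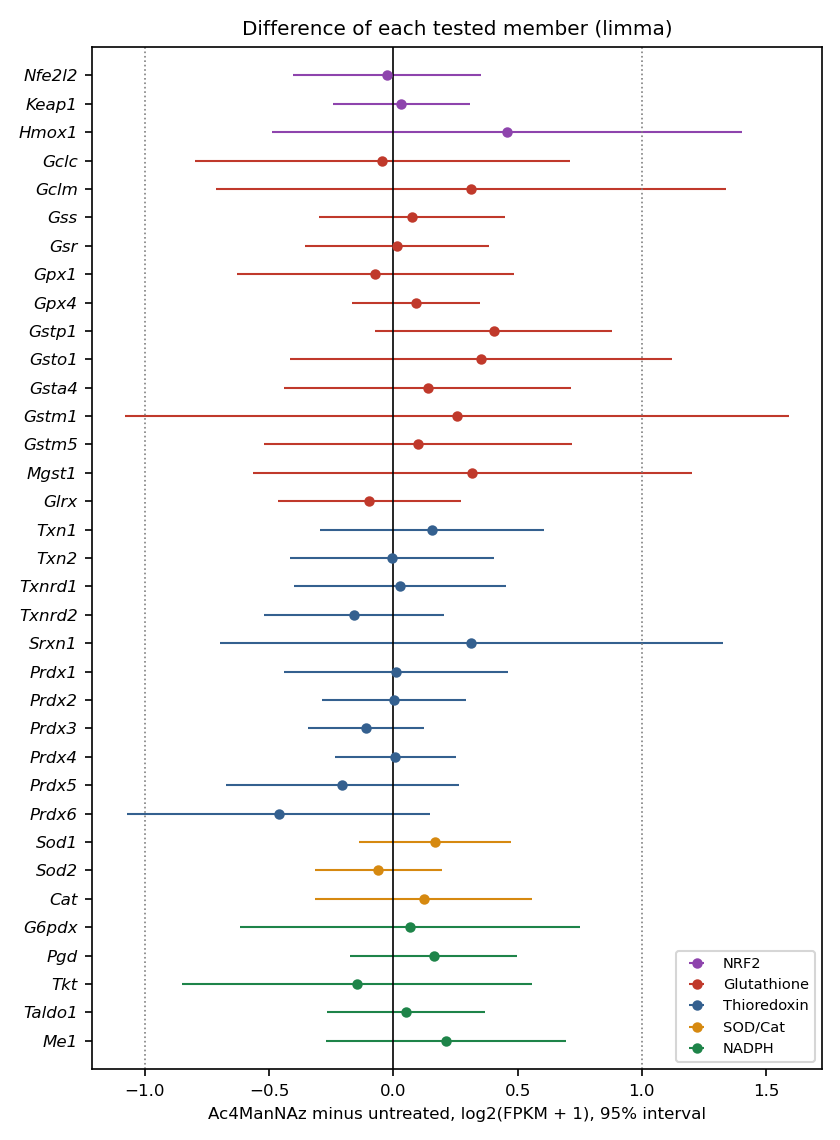
Difference of each of the 35 tested genes, Ac4ManNAz minus untreated, on the log2(FPKM + 1) scale (x axis), with genes down the page coloured by role. Points are limma estimates, bars are 95% intervals (3 libraries per group), and dotted lines mark 2-fold in FPKM + 1. Each bar crosses 0, and 28 of them stay between the dotted lines.

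Some libraries of both groups were high together. Ac4ManNAz replicate 2 and untreated replicate 1 were the 2 highest of the 6 libraries for 13 of the 35 genes, against 16% of all tested genes. This order of libraries was noticed in the data and is a description, with no test. Within the Ac4ManNAz group, replicate 2 was the highest for 21 of the 35 genes, against 39.2% of all tested genes. Within the untreated group, replicate 1 was the highest for 25 of the 35, against 51.3% of all tested genes. The 13 genes were Hmox1, Keap1, Gclc, Gclm, Gsr, Gstm1, Txn2, Txnrd1, Srxn1, Prdx1, Cat, G6pdx and Taldo1, which spans all 5 roles. With these 2 libraries left out, 0 of the 35 genes passed, 26 averaged higher in Ac4ManNAz cells, and the median difference was 0.07. This fit used 2 libraries per group. Over all 9925 tested genes it called 0, with 5245 higher and a median of 0.012. An unadjusted limma p under 0.05 was reached by 1 of the 35, Mgst1, and by 354 of all tested genes.

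**Figure D2:**
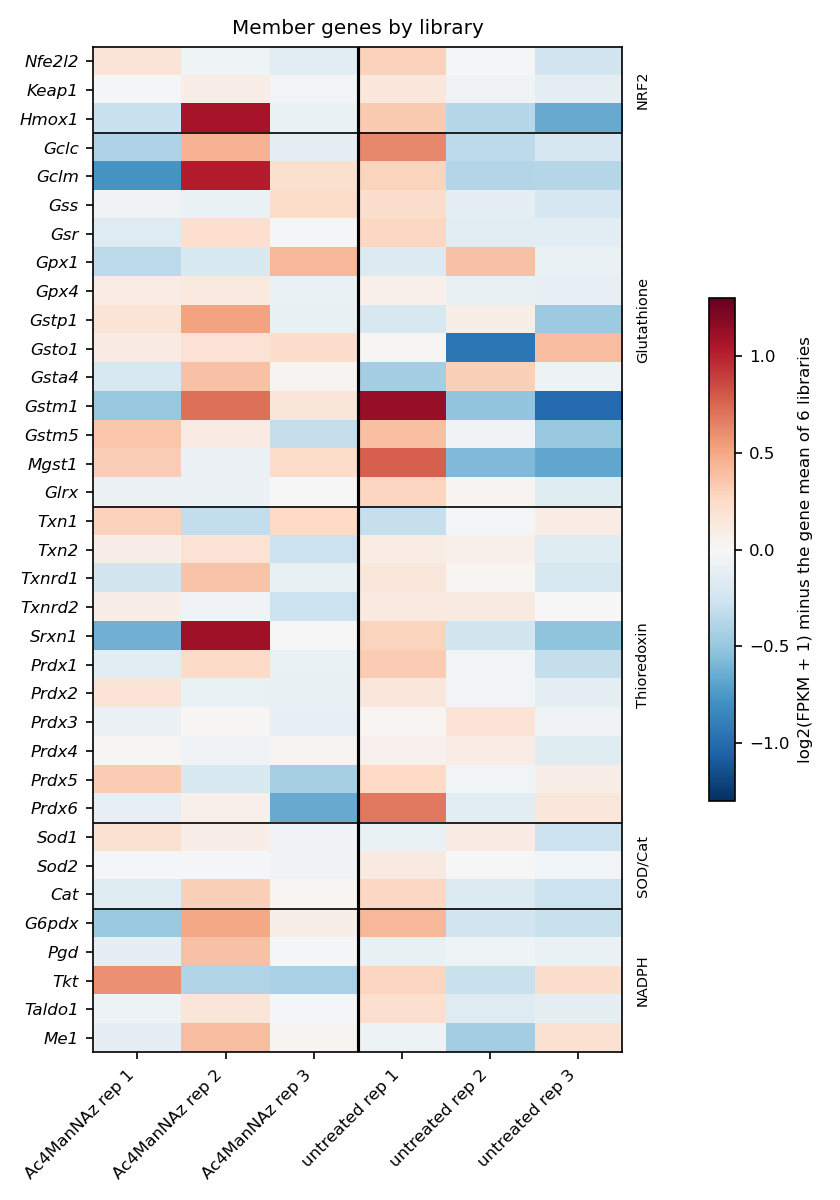
Level of the 35 tested genes (rows, by role) in each library (columns, Ac4ManNAz replicates 1 to 3 and then untreated replicates 1 to 3), as log2(FPKM + 1) minus the mean of the gene over 6 libraries. Red cells are above the mean of the gene and blue cells below; Hmox1, Gclc, Gclm, Gstm1, Srxn1 and G6pdx are red in Ac4ManNAz replicate 2 and in untreated replicate 1, in different groups.

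The promoters of 5 of these 13 genes are shown because they hold the core of the antioxidant response element, searched as TGACNNNGC on both strands. Sequences are from RefSeq on GRCm38.p6, run from 250 bases before to 50 bases after a transcription start, and are written 5′ to 3′ along the gene. Capitals mark the motif, which reads as its reverse complement where it lies on the opposite strand, as it does in all 5.
Srxn1 (chr2:152105274-152105573, plus strand): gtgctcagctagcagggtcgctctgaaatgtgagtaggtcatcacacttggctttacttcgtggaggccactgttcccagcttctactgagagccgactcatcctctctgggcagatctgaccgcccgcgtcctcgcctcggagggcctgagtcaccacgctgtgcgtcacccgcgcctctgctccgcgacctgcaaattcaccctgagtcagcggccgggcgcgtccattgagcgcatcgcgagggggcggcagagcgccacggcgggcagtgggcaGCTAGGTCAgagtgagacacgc
Gclm (chr3:122245307-122245606, plus strand): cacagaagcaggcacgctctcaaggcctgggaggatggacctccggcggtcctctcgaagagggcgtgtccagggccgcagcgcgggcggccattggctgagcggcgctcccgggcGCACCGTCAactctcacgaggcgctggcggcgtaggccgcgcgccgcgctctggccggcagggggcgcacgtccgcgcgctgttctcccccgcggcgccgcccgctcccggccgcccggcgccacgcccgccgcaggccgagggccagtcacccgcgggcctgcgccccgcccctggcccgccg
Prdx1 (chr4:116685349-116685648, plus strand): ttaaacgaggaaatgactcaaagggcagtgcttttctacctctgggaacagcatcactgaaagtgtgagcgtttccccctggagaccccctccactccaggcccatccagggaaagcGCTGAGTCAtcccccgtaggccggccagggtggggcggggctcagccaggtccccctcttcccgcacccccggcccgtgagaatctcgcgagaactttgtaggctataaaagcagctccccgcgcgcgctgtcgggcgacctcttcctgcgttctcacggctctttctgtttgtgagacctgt
Txnrd1 (chr10:82858956-82859255, plus strand): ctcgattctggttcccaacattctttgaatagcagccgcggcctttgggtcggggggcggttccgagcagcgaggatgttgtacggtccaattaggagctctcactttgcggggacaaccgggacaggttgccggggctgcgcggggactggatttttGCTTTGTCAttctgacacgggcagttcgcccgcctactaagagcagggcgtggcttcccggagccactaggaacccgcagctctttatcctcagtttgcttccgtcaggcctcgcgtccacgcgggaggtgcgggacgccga
G6pdx (chrX:74428831-74429130, minus strand): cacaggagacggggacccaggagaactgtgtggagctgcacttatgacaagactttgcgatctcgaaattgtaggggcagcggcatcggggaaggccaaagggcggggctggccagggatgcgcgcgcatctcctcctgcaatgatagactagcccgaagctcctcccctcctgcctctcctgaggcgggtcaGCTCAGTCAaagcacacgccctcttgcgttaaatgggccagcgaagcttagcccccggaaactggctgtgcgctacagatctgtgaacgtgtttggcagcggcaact

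The motif stood in 11 of 41 promoter windows of the genes, or 26.8%, against 12.4% of 32851 windows of all genes. Windows were at hand for 31 of the 36 genes, of which 11 held it in some window, against 14% of 27025 genes. Of the 13 genes highest in the same 2 libraries, 10 had a window and 5 held the motif, against 11 of all 31 with a window. The 13 were picked by their order in these libraries, and a link between that order and the motif was not tested. Beside the 5 shown, it stood in windows of Nfe2l2, Gstm5, Pgd, Mgst1, Me1 and Sod1. In Prdx1 and Me1 the match read TGACTCAGC, which contains TGACTCA, a site of the AP-1 factors. A match is a string of letters and not a bound site, and elements beyond these windows were not searched.

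Among the genes of NRF2 control, the 2 regulators had differences near 0 and their readout Hmox1 varied between libraries, and 0 of the 3 tested genes passed. Nfe2l2, which encodes NRF2 itself (ENSMUSG00000015839, chromosome 2, 75505857 to 75534985), had 47.2, 40.5 and 37.8 FPKM in Ac4ManNAz cells and 51.8, 41.7 and 35.3 FPKM in untreated cells. The groups overlapped almost wholly, with a log2 difference of -0.03 ± 0.16 (SE) that turned positive under TPM scaling and quantile normalization. Keap1, the adaptor that presents NRF2 for degradation (chromosome 9, 21141026 to 21150657), had 12.7, 13.7 and 12.5 FPKM in Ac4ManNAz cells and 14.1, 12.3 and 11.6 FPKM in untreated cells. Its 95% interval, -0.24 to 0.31, lay within 1.5-fold. Hmox1, the heme oxygenase (ENSMUSG00000005413, chromosome 8, 75820249 to 75827217), had 16.5, 43.9 and 19.1 FPKM in Ac4ManNAz cells and 26.2, 15.6 and 12.6 FPKM in untreated cells. Ac4ManNAz replicate 2 stood above the rest, untreated replicate 1 came second, and the other 4 libraries lay between 12.6 and 19.1 FPKM. Its log2 difference of 0.46 ± 0.40 had an interval from -0.49 to 1.40 and an adjusted p of 0.9998 in limma; the difference was 0.04 without Ac4ManNAz replicate 2.

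The glutathione genes were next compared, beginning with synthesis and recycling. Glutamate-cysteine ligase, the rate-limiting enzyme, has a catalytic subunit from Gclc and a modifier subunit from Gclm. Gclm (ENSMUSG00000028124, chromosome 3, 122039206 to 122064381) had 7.17, 27.2 and 15.0 FPKM in Ac4ManNAz cells and 15.9, 9.62 and 9.75 FPKM in untreated cells. The lowest and the highest of the 6 libraries were both Ac4ManNAz libraries, 3.79-fold apart. Gclc had 4.29, 8.60 and 5.45 FPKM in Ac4ManNAz cells and 9.83, 4.52 and 5.01 FPKM in untreated cells, again with Ac4ManNAz replicate 2 and untreated replicate 1 above the others. The log2 difference was 0.31 ± 0.43 for Gclm and -0.05 ± 0.32 for Gclc. Without Ac4ManNAz replicate 2 they were -0.12 for Gclm and -0.28 for Gclc; Gclm was 0.77 without Ac4ManNAz replicate 1, and Gclc was 0.26 without untreated replicate 1. Gss, which completes glutathione, averaged 15.9 ± 2.11 FPKM in Ac4ManNAz cells and 15.1 ± 2.72 FPKM in untreated cells (SD, n = 3 per group here and in every later mean). Gsr, the reductase that restores it, averaged 43.6 ± 6.04 FPKM in Ac4ManNAz cells and 43.3 ± 7.56 FPKM in untreated cells.

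**Figure D3:**
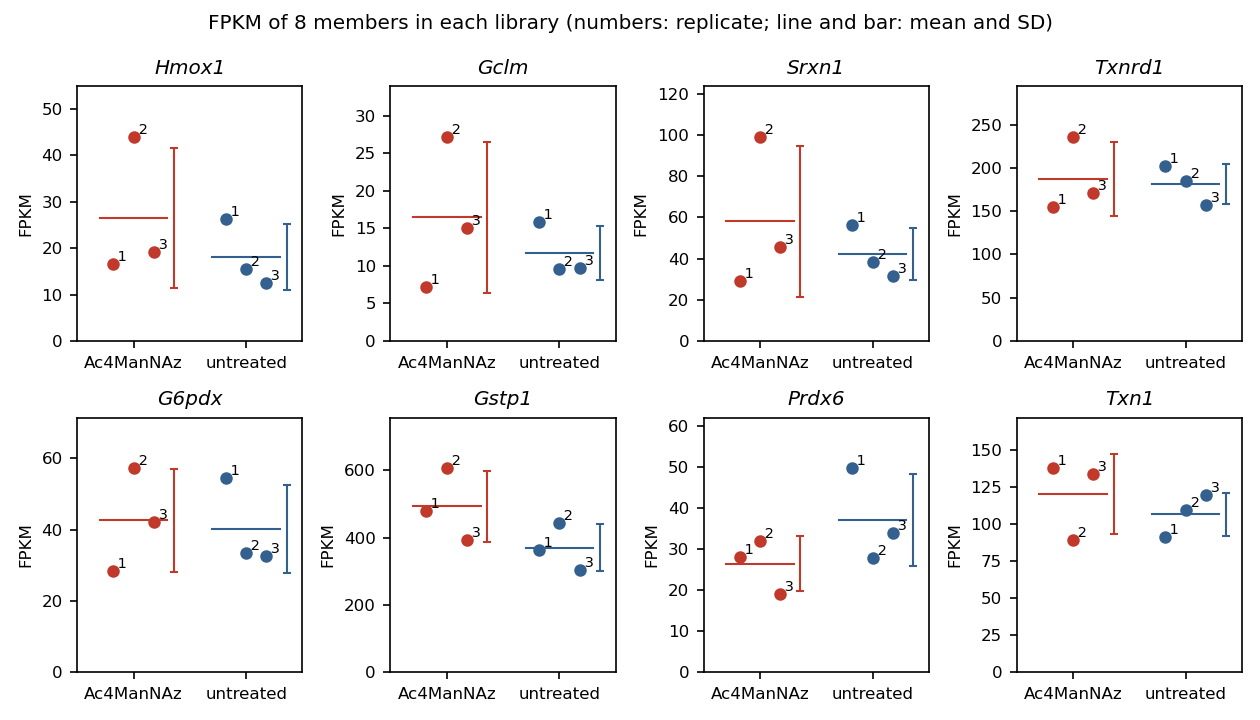
FPKM (y axis, from 0) of 8 genes in each library, with the replicate number beside each point, a line at the group mean and a bar for the SD (n = 3), Ac4ManNAz left of untreated. In Hmox1, Gclm, Srxn1, Txnrd1 and G6pdx, Ac4ManNAz replicate 2 and untreated replicate 1 are the 2 highest points, while for Txn1 they are the 2 lowest.

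Of the genes that use glutathione, Gstp1 had the smallest p. Gstp1 (ENSMUSG00000060803, chromosome 19, 4085407 to 4087985), which conjugates glutathione to electrophiles, had 478, 605 and 394 FPKM in Ac4ManNAz cells and 364, 443 and 304 FPKM in untreated cells. Ac4ManNAz replicates 1 and 2 were above every untreated library, and Ac4ManNAz replicate 3 lay between untreated replicates 1 and 2. The log2 difference was 0.40 ± 0.20 with an interval from -0.07 to 0.88 and a limma adjusted p of 0.9998. Over the alternatives it ran from 0.02 with array weights, which let libraries count unequally, to 1.08 with the most abundant transcript. Leaving out single libraries gave 0.24 without Ac4ManNAz replicate 2 to 0.55 without Ac4ManNAz replicate 3. The smallest unadjusted limma p was 0.019, with a replicate block, where the adjusted p was 0.99945. A close paralog, Gstp2, lies beside it and could share its reads; it was listed at 1.91, 1.05 and 0.432 FPKM in Ac4ManNAz cells and 0.960, 1.02 and 0.345 FPKM in untreated cells.

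The glutathione peroxidases were compared next. Gpx4 averaged 266 ± 20.5 FPKM in Ac4ManNAz cells and 249 ± 17.1 FPKM in untreated cells, and its interval from -0.16 to 0.35 lay within 1.5-fold. Gpx1, the cytosolic glutathione peroxidase, averaged 83.0 ± 25.4 FPKM in Ac4ManNAz cells and 86.2 ± 18.8 FPKM in untreated cells. Its highest libraries, at 112 FPKM in Ac4ManNAz replicate 3 and 108 FPKM in untreated replicate 2, were not those that led Gclm and Hmox1.

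Among the other transferases, Gstm1 had the widest spread of the tested genes, 5.81-fold from its lowest to its highest library. Gstm1 had 3.91, 10.4 and 6.70 FPKM in Ac4ManNAz cells and 14.1, 3.85 and 2.43 FPKM in untreated cells, so that untreated libraries held both its extremes. Its close relative Gstm5 averaged 11.6 ± 2.86 FPKM in Ac4ManNAz cells and 10.9 ± 3.62 FPKM in untreated cells. The mu-class genes are similar in sequence, and how reads were divided among them is not given in the sources used here. Mgst1, a membrane-bound transferase, had 49.7, 37.4 and 46.8 FPKM in Ac4ManNAz cells and 68.5, 26.3 and 24.3 FPKM in untreated cells. Its 3 Ac4ManNAz values fell between the highest untreated library and the other 2. The log2 difference was 0.32 ± 0.37, and it was 0.79 without untreated replicate 1 and 0.06 without untreated replicate 3. Without Ac4ManNAz replicate 2 and untreated replicate 1, left out together after seeing the data, it was 0.91. The unadjusted limma p there was 0.00065 and the adjusted p was 0.527.

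Gsto1, the omega-class transferase, had 3.11, 3.33 and 3.47 FPKM in Ac4ManNAz cells and 2.85, 0.986 and 4.01 FPKM in untreated cells. The low value of untreated replicate 2 set its difference of 0.35, which was -0.03 without that library. Gsta4 averaged 2.10 ± 0.636 FPKM in Ac4ManNAz cells and 1.84 ± 0.737 FPKM in untreated cells. Glrx, the glutaredoxin that removes glutathione from proteins, averaged 3.32 ± 0.134 FPKM in Ac4ManNAz cells and 3.65 ± 0.714 FPKM in untreated cells. Of the 13 glutathione genes, 0 passed, 10 averaged higher in Ac4ManNAz cells and 3 lower, with a median difference of 0.10, and the 10 and 3 were the same counts under each of 3 other scalings. The count of 10 was 6 without untreated replicate 3.

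The thioredoxin genes had a median difference of 0.0014, with 6 of 11 higher in Ac4ManNAz cells (7 under TPM scaling), 5 lower and 0 passed. The count of 6 was 3 without Ac4ManNAz replicate 2 and 2 without untreated replicate 3. Srxn1, which encodes sulfiredoxin, the repair enzyme of over-oxidised peroxiredoxins (ENSMUSG00000032802, chromosome 2, 151947444 to 151953296), had 29.2, 99.1 and 45.8 FPKM in Ac4ManNAz cells and 56.2, 38.5 and 31.6 FPKM in untreated cells. Like Gclm, it had its highest and its lowest library in the Ac4ManNAz group, 3.39-fold apart, and a log2 difference of 0.31 ± 0.43. That difference was -0.16 without Ac4ManNAz replicate 2 and 0.71 without Ac4ManNAz replicate 1. Txnrd1, the cytosolic thioredoxin reductase, had 155, 236 and 171 FPKM in Ac4ManNAz cells and 202, 185 and 157 FPKM in untreated cells, with the same 2 libraries highest over a range of 1.53-fold. Its difference was 0.03 ± 0.18, and -0.15 without Ac4ManNAz replicate 2.

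Txn1, the cytosolic thioredoxin, ran the other way across libraries. It had 138, 89.5 and 134 FPKM in Ac4ManNAz cells and 91.1, 109.6 and 119 FPKM in untreated cells, so that its 2 lowest libraries were Ac4ManNAz replicate 2 and untreated replicate 1. The mitochondrial partners were low: Txn2 averaged 3.42 ± 0.725 FPKM in Ac4ManNAz cells and 3.40 ± 0.411 FPKM in untreated cells, and Txnrd2 averaged 2.52 ± 0.447 FPKM in Ac4ManNAz cells and 2.91 ± 0.195 FPKM in untreated cells.

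Of the 6 peroxiredoxins, Prdx1, Prdx2 and Prdx4 differed least. Prdx1 averaged 425 ± 63.4 FPKM in Ac4ManNAz cells and 425 ± 95.9 FPKM in untreated cells, and Prdx2, its cytosolic relative, averaged 189.97 ± 21.2 FPKM in Ac4ManNAz cells and 189.6 ± 17.9 FPKM in untreated cells. Prdx4, the form of the endoplasmic reticulum, averaged 52.8 ± 1.51 FPKM in Ac4ManNAz cells and 52.7 ± 4.96 FPKM in untreated cells. Prdx3, the mitochondrial form, averaged 101 ± 4.34 FPKM in Ac4ManNAz cells and 109 ± 8.88 FPKM in untreated cells. The intervals of Prdx1, Prdx2, Prdx3 and Prdx4 lay within 1.5-fold.

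The other 2 had the largest negative differences of the 35 genes. Prdx6, a peroxidase that uses glutathione and also acts on phospholipids (ENSMUSG00000026701, chromosome 1, 161067682 to 161078789), had 28.2, 32.1 and 19.1 FPKM in Ac4ManNAz cells and 49.7, 27.8 and 33.9 FPKM in untreated cells. The groups overlapped through untreated replicate 2, and the log2 difference was -0.46 ± 0.26 with an interval from -1.07 to 0.15 and a limma adjusted p of 0.9998. Prdx5, found in mitochondria and peroxisomes, had 48.5, 33.3 and 28.3 FPKM in Ac4ManNAz cells and 46.1, 37.6 and 41.0 FPKM in untreated cells, a difference of -0.21 ± 0.20. Both stayed negative under each of the 18 alternative settings, but their size turned on single libraries. Settings that change only the filter, the variance or the block leave an estimate as it is, so they could not change its sign. Prdx5 was -0.04 without Ac4ManNAz replicate 3 and -0.42 without Ac4ManNAz replicate 1, and Prdx6 was -0.25 without Ac4ManNAz replicate 3 and -0.24 without untreated replicate 1.

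Among the enzymes that act on superoxide and hydrogen peroxide directly, 2 of 3 averaged higher in Ac4ManNAz cells, here and under each of 3 other scalings, but 1 of 3 without Ac4ManNAz replicate 2, and 0 passed. Sod1, the cytosolic superoxide dismutase, had 80.9, 74.9 and 68.2 FPKM in Ac4ManNAz cells and 66.4, 76.0 and 57.7 FPKM in untreated cells. Untreated replicate 2 lay among the Ac4ManNAz values, and the log2 difference was 0.17 ± 0.13, or 0.07 without untreated replicate 3. Sod2, the mitochondrial enzyme, had 9.46, 9.48 and 9.32 FPKM in Ac4ManNAz cells and 10.6, 9.68 and 9.40 FPKM in untreated cells, the narrowest range of the 35 genes at 1.13-fold. Cat, which encodes catalase, had 22.5, 31.4 and 25.7 FPKM in Ac4ManNAz cells and 30.6, 22.2 and 20.6 FPKM in untreated cells, a difference of 0.12 ± 0.18 that was -0.0018 without Ac4ManNAz replicate 2.

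Of the 5 genes linked to NADPH supply, 4 averaged higher in Ac4ManNAz cells, also under each of 3 other scalings. The count was 2 without untreated replicate 2, and 0 passed. G6pdx, the first and committing enzyme of the pentose phosphate pathway (ENSMUSG00000031400, X chromosome, 73453089 to 73472800), had 28.4, 57.2 and 42.2 FPKM in Ac4ManNAz cells and 54.5, 33.6 and 32.6 FPKM in untreated cells. As for Gclm, Ac4ManNAz replicate 2 was highest, untreated replicate 1 second and Ac4ManNAz replicate 1 lowest, and its difference was 0.07 ± 0.29, or -0.17 without Ac4ManNAz replicate 2 and 0.32 without Ac4ManNAz replicate 1. Pgd, the second NADPH-producing enzyme of that pathway, had 65.0, 92.4 and 69.3 FPKM in Ac4ManNAz cells and 66.1, 67.7 and 66.2 FPKM in untreated cells. Only Ac4ManNAz replicate 2 stood apart, and the difference of 0.16 ± 0.14 was 0.0098 without it.

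In the non-oxidative branch, Taldo1, which encodes transaldolase, averaged 181 ± 15.2 FPKM in Ac4ManNAz cells and 176 ± 26.6 FPKM in untreated cells. Tkt, which encodes transketolase, had 78.6, 39.2 and 38.4 FPKM in Ac4ManNAz cells and 63.1, 42.1 and 61.0 FPKM in untreated cells. Its Ac4ManNAz libraries held the highest value and the 2 lowest, and the difference was -0.15 ± 0.30. It was -0.48 without Ac4ManNAz replicate 1, 0.01 without Ac4ManNAz replicate 2 and 0.03 without Ac4ManNAz replicate 3. Me1, the cytosolic malic enzyme, had 20.1, 29.4 and 22.6 FPKM in Ac4ManNAz cells and 20.9, 15.8 and 25.4 FPKM in untreated cells, a difference of 0.21 ± 0.20 with overlapping groups. It was 0.06 without Ac4ManNAz replicate 2 and 0.04 without untreated replicate 2.

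The table is given per transcript, and gene sums can hide transcripts that move apart. Of the 108 transcripts, 58 averaged at least 1 FPKM, and 13 genes had 2 or more of these. limma called 0 of the 58 with Benjamini-Hochberg adjustment over 14846 transcripts, of which it called 0.0606%, and 3 of the 58 had an unadjusted p under 0.05, against 2.54% of all tested transcripts. For 2 transcripts the Ac4ManNAz values lay all above the untreated ones, against 2.66% of all tested transcripts, and for 3 all below, against 3.72%.

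Gstp1-201, 1 of 3 abundant Gstp1 transcripts, had 169, 172 and 189 FPKM in Ac4ManNAz cells and 149, 149 and 121 FPKM in untreated cells, a log2 difference of 0.35 ± 0.12. It was the transcript with the smallest unadjusted limma p, 0.0245, with an adjusted p of 0.99977. Gstp1-209, the most abundant, was listed at 302, 269 and 79.2 FPKM in Ac4ManNAz cells and 68.2, 195 and 49.9 FPKM in untreated cells. Gstp1-208 was listed at 7.02, 164 and 126 FPKM in Ac4ManNAz cells and 148, 100.05 and 133 FPKM in untreated cells, low in 1 library only. The gene sum varied 1.99-fold over the same libraries.

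Of the 3 tested Keap1 transcripts, 2 did not overlap between groups, in opposite directions, and neither reached an unadjusted p under 0.05. Keap1-201 had 5.68, 5.03 and 5.25 FPKM in Ac4ManNAz cells and 4.76, 5.00 and 3.75 FPKM in untreated cells, all above, by margins as small as that between 5.03 and 5.00, with a log2 difference of 0.20 ± 0.15. Keap1-204 had 1.15, 1.10 and 0.964 FPKM in Ac4ManNAz cells and 1.60, 1.31 and 1.28 FPKM in untreated cells, all below, with a log2 difference of -0.21 ± 0.18. The more abundant Keap1-202 had 4.78, 6.37 and 5.41 FPKM in Ac4ManNAz cells and 6.66, 5.11 and 5.42 FPKM in untreated cells, with overlap.

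Prdx2-203 had 28.7, 25.1 and 28.7 FPKM in Ac4ManNAz cells and 33.5, 31.4 and 37.1 FPKM in untreated cells, a difference of -0.30 ± 0.11. The more abundant Prdx2-201 and Prdx2-208 overlapped between groups, with differences of 0.12 ± 0.15 and -0.02 ± 0.13. Taldo1-204 was listed at 1.80, 1.74 and 2.42 FPKM in Ac4ManNAz cells and 20.5, 12.4 and 2.45 FPKM in untreated cells. It made up 3.86% of the gene, and Taldo1-201, with 96.1%, had 168, 197 and 174 FPKM in Ac4ManNAz cells and 186, 146 and 161 FPKM in untreated cells.

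For Gss the main transcript changed from library to library. Gss-203 was listed at 11.7, 3.38 and 15.1 FPKM in Ac4ManNAz cells and 15.1, 11.8 and 0 FPKM in untreated cells. Gss-201 was listed at 2.37, 9.19 and 1.68 FPKM in Ac4ManNAz cells and 2.71, 1.36 and 12.7 FPKM in untreated cells, high where Gss-203 was low. The sum of the gene stayed between 13.0 and 18.3 FPKM. The glycolysis gene Gapdh, active in all cells, was listed at 0.135 to 10.4 FPKM over the libraries. Low values here, 0 included, may be failed estimates, which was not tested.

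In the other genes with 2 or more tested transcripts, a single transcript usually held most of the sum. Gpx4-202 held 96.3% of Gpx4 and Gpx4-207 held 2.02%. Txnrd1-206 held 89.4% of Txnrd1, with 132, 210.1 and 155 FPKM in Ac4ManNAz cells and 185, 161 and 145 FPKM in untreated cells, and Txnrd1-208 held 8.99%. Prdx6-202 held 94.5% of Prdx6 and carried the gene's difference, at -0.54 ± 0.29, while Prdx6-201 had 0.43 ± 0.34. Prdx5-201 held 83% of Prdx5 and Prdx5-203 held 16.4%. Prdx1-204 held 98.7% of Prdx1 and Gpx1-201 held 97.3% of Gpx1, with Prdx1-205 at 0.57% and Gpx1-202 at 2.65%. Gstm5-201 held 75.2% of Gstm5 and Gstm5-204 held 14.6%. G6pdx-201 held 97.2% of G6pdx. The minor G6pdx-203 had 0.845, 3.43 and 0.840 FPKM in Ac4ManNAz cells and 1.16, 0.660 and 0.0927 FPKM in untreated cells, with the same 2 libraries highest as for the gene.

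**Figure D4:**
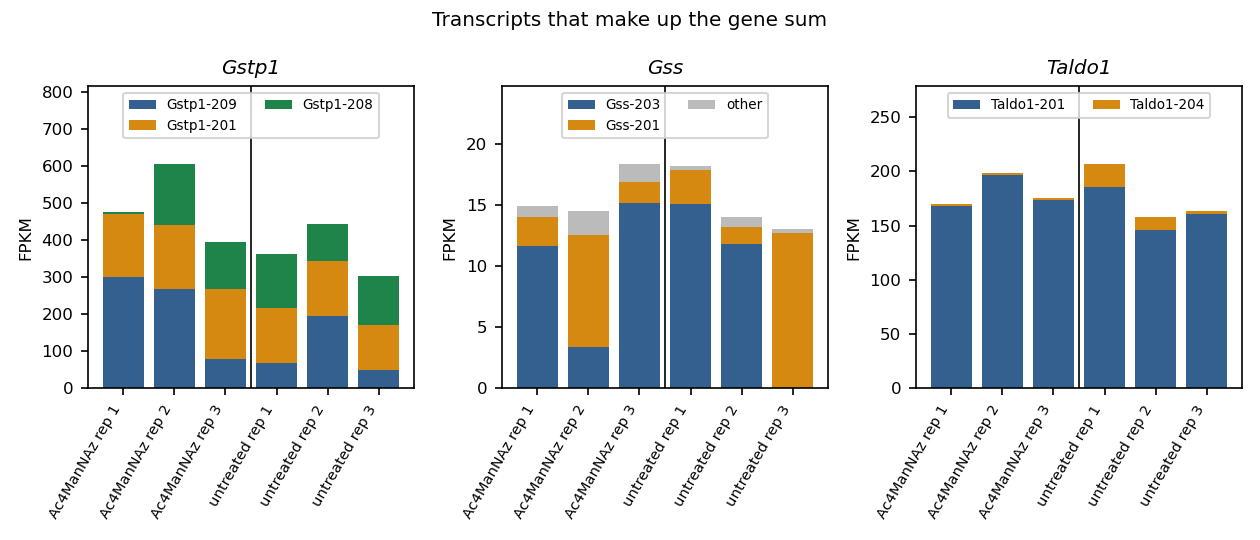
FPKM (y axis, from 0) of the transcripts that add up to Gstp1, Gss and Taldo1 in each library, Ac4ManNAz replicates left of untreated ones, with transcripts under a mean of 1 FPKM in grey; bars stack to the gene sum. Gss-203 and Gss-201 trade places in Ac4ManNAz replicate 2 and untreated replicate 3, Gstp1-208 nearly vanishes in Ac4ManNAz replicate 1, and Taldo1-204 is visible in untreated replicates 1 and 2.

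A further 67 symbols of the same pathways, from NRF2 partners to glutathione turnover and other NADPH sources, matched 68 gene identifiers, of which 55 were tested. limma with Benjamini-Hochberg adjustment called 0 of them, and 0 had an unadjusted p under 0.05. 31 averaged higher in Ac4ManNAz cells and 24 lower, with a median difference of 0.015. The Ac4ManNAz values lay all above the untreated ones for 3 of the 55, against 2.1% of all tested genes, and all below for 1, against 3.71%.

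Nnt, the mitochondrial transhydrogenase that makes NADPH from NADH, had 23.8, 24.4 and 20.4 FPKM in Ac4ManNAz cells and 38.7, 27.6 and 24.9 FPKM in untreated cells. Every Ac4ManNAz value lay below every untreated one, narrowly, with a log2 difference of -0.38 ± 0.18 and a limma adjusted p of 0.9998. Slc3a2, the heavy chain of the cystine and neutral amino acid transporters, had 91.9, 87.7 and 79.9 FPKM in Ac4ManNAz cells and 65.4, 79.8 and 75.4 FPKM in untreated cells, a difference of 0.23 ± 0.11. Txnl1, a thioredoxin-like protein of the proteasome, had 52.6, 49.2 and 47.3 FPKM in Ac4ManNAz cells and 43.7, 46.0 and 43.1 FPKM in untreated cells, a difference of 0.16 ± 0.09. Glrx2, the mitochondrial glutaredoxin, was also all above, at 1.46, 1.87 and 1.76 FPKM in Ac4ManNAz cells and 1.44, 1.43 and 1.14 FPKM in untreated cells. Me2, the mitochondrial malic enzyme, had the next smallest p among the genes that averaged lower, with a difference of -0.10 ± 0.09 and overlapping groups.

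Of these 55 genes, 13 also had Ac4ManNAz replicate 2 and untreated replicate 1 as their highest libraries, against 16% of all tested genes. Ac4ManNAz replicate 2 was the highest of its group for 20 of the 55, against 39.2% of all tested genes. Untreated replicate 1 was the highest of its group for 34 of the 55, against 51.3%. Slc7a11, the cystine antiporter that feeds glutathione synthesis and an NRF2 target, was singled out after its values were seen. It had 4.04, 24.1 and 10.4 FPKM in Ac4ManNAz cells and 15.7, 4.47 and 3.51 FPKM in untreated cells, a 6.86-fold range. Ac4ManNAz replicate 2 was highest and untreated replicate 1 second, as for Hmox1, Gclm, Srxn1 and G6pdx. The melanocyte markers Dct, Mitf and Tyr, 3 of 7, also had these 2 libraries highest. Dct was at 402, 693 and 516 FPKM in Ac4ManNAz cells and 700.35, 471 and 386 FPKM in untreated cells, and Mitf was at 157, 184 and 160.5 FPKM in Ac4ManNAz cells and 223, 157 and 137 FPKM in untreated cells. Tyr was at 172, 176 and 161 FPKM in Ac4ManNAz cells and 198, 164 and 120.2 FPKM in untreated cells. Sox10 lay between 55.3 and 64.3 FPKM in all 6 libraries. Mlana, another melanocyte marker, had 1269.5, 158 and 935 FPKM in Ac4ManNAz cells and 976, 1138 and 856 FPKM in untreated cells, low in Ac4ManNAz replicate 2 alone. The summed FPKM was 310003 in Ac4ManNAz replicate 2 and 340444 in untreated replicate 1. The part of these differences between libraries in the levels of the 35 genes was not tested.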

How the data were processed

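Total RNA of B16F10 cells had its rRNA removed before strand-specific Illumina libraries were built, per the labels' protocols. The authors deposited a table of FPKM per annotated transcript and library; the unit comes from the name of the table and its values, which reach down to 1e-06. For aligner, quantifier, annotation and genome build: not given in the sources used here. Gene coordinates are printed as deposited, 1-based. Of the 108 member transcripts, 108 have the same span in GENCODE M21 on GRCm38 but 1 has the same start, so promoters are given on GRCm38.p6 from RefSeq and were not joined to the deposited coordinates.

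Transcripts were summed per gene identifier. Genes averaging 1 FPKM or more were tested on log2(FPKM + 1) with limma 3.58.1 in R 4.3.3 (eBayes with intensity trend, two-sided, Benjamini-Hochberg threshold 0.05, group as the only term). Transcripts were tested the same way. A pseudocount of 1 understates changes of low genes. The test was checked on simulated data. Tables and figures used Python 3.11.15, pandas 2.3.3, numpy 2.4.6 and matplotlib 3.10.9.

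Members, lists, roles and the rule for named genes were chosen with earlier results of these data known. The rule gave values in every library for genes with the largest differences of each role, for genes over 3-fold apart between libraries, for Nfe2l2 and Keap1, and for genes whose groups do not overlap, and the 2 most abundant transcripts of genes with 2 or more tested. Values in every library of Gclc, Txnrd1, Txn1, G6pdx, Slc7a11, Dct, Mitf, Tyr, Mlana, Gstp2 and G6pdx-203 and the levels of Sox10 and Gapdh were added after they were seen. So were the transcripts of Keap1, Prdx2 and Gstp1 beyond the 2 most abundant. Alternatives were another pseudocount, other filters, scalings and variance settings, array weights, a replicate block, the most abundant transcript, and each library left out. Replicate numbers come from the titles and were not taken to pair the libraries.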

Additional observations from a re-analysis of the deposited data

How the results depend on the processing

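0 of the 35 tested genes were called under any of the 18 alternatives for genes, and 0 of their transcripts under any of the 17 for transcripts. 12 of the 35 genes kept their sign under every alternative, and scaling changed the sign of 2, Nfe2l2 and Txn2. Alternatives that change only the filter, the variance or the block could not change a sign. The count of these genes higher in Ac4ManNAz cells ran from 14 to 27 when single libraries were left out. The same count over all 9925 tested genes ran from 3866 to 5730. Over all tested genes, limma called 2 with array weights and 4 with the most abundant transcript, and 0 to 1 with single libraries left out. Same-numbered libraries had deviations correlated at 0.0643, 0.0188 and 0.261 for replicates 1, 2 and 3. Differently numbered libraries of the 2 groups ran from -0.174 to 0.0839. These values do not settle whether libraries were paired, and the numbers were not taken as pairs. With a replicate block 0 of the 35 genes and 0 of all genes passed, and 1 transcript of 14846 did. Transcripts called numbered 9 as reported and 1 to 19 over the alternatives, 19 with array weights and 2 with the mean minimum at 5 FPKM. With array weights 8 of the 35 genes had an unadjusted p under 0.05, among 2389 of all tested genes. The cause of these shifts was not tested. Leaving out Ac4ManNAz replicate 2 and untreated replicate 1 together was chosen after seeing the data. Depth is unknown, so no counting error is given.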
